A study of Mus musculus with 10 samples.

Results

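Regions that carried H3K27me3 with no H3K9me3 were described in Glast+ cells of the mouse retina. They are the runs of 5 kb or more that lay under an H3K27me3 island in both of 2 experiments, Exp1 and Exp2, and that no H3K9me3 island of either experiment overlapped. They were thus chosen by the H3K27me3 and H3K9me3 islands of the 2 experiments, which are described and not tested here. An island is a stretch of the genome called as enriched for a mark. Of 4262 H3K27me3 regions found in both experiments, 699 (16.4%) met this rule. They held 54.76 Mb, or 11.7% of the length of all H3K27me3 regions. The regions free of H3K9me3 held 107.11 Mb when Exp2 alone was used, 91.68 Mb with runs under H3K27me3 in either experiment and 84.56 Mb when only H3K9me3 islands found in both experiments counted.

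The cells came from retinas of C57BL/6 mice at postnatal day 28, and the labels name no treatment and no genetic change. Glast (Slc1a3) is a glutamate transporter used to isolate Müller glia, which span the retina and support its neurons. Chromatin of 25000 cells per immunoprecipitation was sequenced as single-end reads of 50 bp for H3K4me3, H3K4me1, H3K27me3 and H3K9me3, with 2 experiments for each of the 4 marks. Nothing in the labels says which animals the experiments drew on, so the spread between them may be technical. The lists hold no read counts, so the depth is unknown, and "free of H3K9me3" means only that no island was called.

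H3K27me3 is written by the Polycomb complex PRC2 and read by PRC1, and it covers genes of other lineages and of other stages of development. H3K9me3 is the mark of constitutive heterochromatin and of silenced gene families. H3K4me3 sits at promoters, most often those rich in CpG dinucleotides, and a promoter with both H3K4me3 and H3K27me3 is called bivalent. H3K4me1 marks enhancers and the flanks of promoters.

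The sequences at 6 gene starts show the range of promoters that the regions held. Each is the 250 bases before a start, 5′ to 3′ on the gene's strand, from RefSeq (GRCm38.p6), with every CG in capitals. Gsx1 and Foxd2 carried H3K4me3 at the start in both experiments, and Pdx1 and Cdx2 carried it in neither. All 4 encode transcription factors and lay in the regions with most starts of such genes. Cd3d and Jaml, genes of T cells and other leukocytes, had the fewest CG among genes in the 10 widest regions and were chosen after their values were seen.
Gsx1: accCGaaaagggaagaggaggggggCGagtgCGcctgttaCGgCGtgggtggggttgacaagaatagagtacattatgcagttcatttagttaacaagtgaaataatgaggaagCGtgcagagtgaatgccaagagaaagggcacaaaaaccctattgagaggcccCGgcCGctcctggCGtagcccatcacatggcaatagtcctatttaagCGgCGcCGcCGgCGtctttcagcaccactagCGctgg
Foxd2: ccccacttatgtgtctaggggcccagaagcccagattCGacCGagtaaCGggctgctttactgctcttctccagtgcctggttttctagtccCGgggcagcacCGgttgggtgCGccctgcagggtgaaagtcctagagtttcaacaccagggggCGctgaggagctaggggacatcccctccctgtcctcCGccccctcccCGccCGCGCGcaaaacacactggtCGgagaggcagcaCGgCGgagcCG
Pdx1: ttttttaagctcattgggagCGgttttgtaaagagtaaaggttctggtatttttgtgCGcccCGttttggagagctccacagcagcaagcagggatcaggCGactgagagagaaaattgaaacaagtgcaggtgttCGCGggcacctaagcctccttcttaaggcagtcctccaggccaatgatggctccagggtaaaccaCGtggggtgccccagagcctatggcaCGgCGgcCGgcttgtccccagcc
Cdx2: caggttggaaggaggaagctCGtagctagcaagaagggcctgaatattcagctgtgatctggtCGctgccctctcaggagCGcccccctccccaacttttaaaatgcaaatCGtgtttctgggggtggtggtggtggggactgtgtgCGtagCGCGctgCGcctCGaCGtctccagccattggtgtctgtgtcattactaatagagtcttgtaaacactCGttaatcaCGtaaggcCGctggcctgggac
Cd3d: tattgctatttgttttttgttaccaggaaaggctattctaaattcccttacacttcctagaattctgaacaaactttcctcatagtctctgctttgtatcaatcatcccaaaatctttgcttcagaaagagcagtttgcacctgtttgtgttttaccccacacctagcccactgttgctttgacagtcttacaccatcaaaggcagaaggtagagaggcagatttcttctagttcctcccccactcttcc
Jaml: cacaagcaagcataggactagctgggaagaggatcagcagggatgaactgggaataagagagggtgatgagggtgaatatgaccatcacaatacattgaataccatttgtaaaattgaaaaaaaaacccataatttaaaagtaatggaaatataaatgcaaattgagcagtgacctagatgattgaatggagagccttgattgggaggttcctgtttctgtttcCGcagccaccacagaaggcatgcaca
They lie at chr5:147188446-147188695 (+ strand), chr4:114908899-114909148 (- strand), chr5:147269847-147270096 (+ strand), chr5:147307250-147307499 (- strand), chr9:44981536-44981785 (+ strand) and chr9:45078933-45079182 (+ strand). Gsx1 held 15 CG and Foxd2 16, against 10 for Pdx1, 13 for Cdx2, 0 for Cd3d and 1 for Jaml. Over 21263 promoters of protein-coding genes in the same table the median was 10 CG in 250 bases, and 93.4% held at least 1. Gsx1, Pdx1 and Cdx2 are neighbours in a single H3K27me3 region and differed in H3K4me3.

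The regions were broad and most lay far from H3K9me3, though the rule asked only for 5 kb and no overlap. Width and distance are given as a description, since the rule used the same islands. Their median width was 60 kb, with quartiles of 32.5 and 100 kb and a range of 5 to 555 kb. Neighbouring H3K27me3 islands were never closer than 35 kb in the lists, so shorter gaps were bridged. The other 3563 regions had a median of 65 kb and reached 4735 kb. The median distance to an H3K9me3 island was 206 kb, and 636 of the 699 regions were over 50 kb away. Just inside the rule, 13 regions measured exactly 5 kb and the nearest H3K9me3 island lay 7 kb off. Just outside, 19 other regions had at most 3 kb of H3K9me3, the smallest overlap being 1 kb, while the median of the others was 98.3% covered. In 3 regions the H3K27me3 island of Exp1 had a p-value above 0.05 in the authors' list, and in 7 that of Exp2 did.

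**Figure D1:**
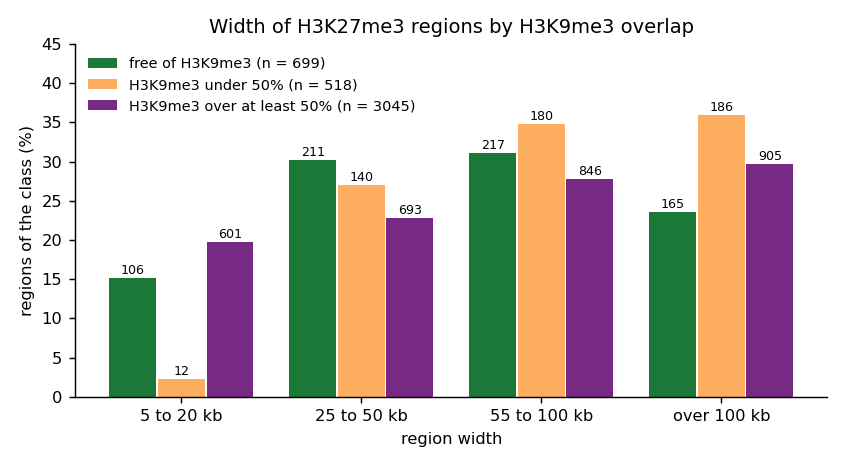
Width of H3K27me3 regions in 3 classes by H3K9me3 overlap, as the percent of each class (bars, left axis) in 4 width classes, with the number of regions above each bar. Of the 699 regions free of H3K9me3, 106 were 5 to 20 kb wide and 165 were over 100 kb.

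The regions were spread unevenly over chromosomes. On chromosome 11, 68 of 196 H3K27me3 regions (34.7%) were free of H3K9me3, and on chromosome 19, 21 of 72 (29.2%), against 16.4% of all. By length the shares were 35.9% on chromosome 11 but 12.5% on chromosome 19, against 11.7% of all H3K27me3 length. Chromosomes 15 (23.8%), 9 (20.5%) and 2 (20.2%) were higher by length than chromosome 19. The X chromosome had 9 of 372 (2.42%) and the Y chromosome 0 of 9. Chromosome 11 thus stood highest and the sex chromosomes lowest, as a description of what the rule chose.

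The 10 widest regions ranged from no gene start to 11. The widest, chr11:35250001-35805000, ran over 555 kb across the gene body of Slit3, an axon guidance ligand, and held the starts of Pank3 and Fbll1. H3K4me3 covered 1.01% of it in Exp1 and 0.973% in Exp2. Next was chr9:61260001-61760000, 500 kb with the single start of Tle3, a Groucho-type corepressor, where H3K4me1 covered 21.9% in Exp1 and 10.8% in Exp2. A region of 400 kb on chromosome 13 lay inside Spock1, held no start and no H3K4me3 in either experiment, and had H3K4me1 over 13.8% and 5.95%. Regions of 345 kb around Sall1, of 340 kb around Efnb1 and of 320 kb around Lingo1 each held 1 start. At the other extreme, 350 kb of chromosome 9 held 11 starts, among them Cd3g, Cd3d and Cd3e, subunits of the T-cell receptor complex, and H3K4me1 covered 4.06% and 3.94% of it. A region of 325 kb on chromosome 17 also held 11, from Baiap3 through the mast-cell and related proteases Prss34, Prss28, Prss29, Tpsb2 and Tpsg1 to Sox8, with H3K4me1 over 38.0% and 22.0%. Single wide regions thus ranged widely in H3K4me1.

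H3K4me1 covered more of these regions than H3K4me3 did, and its ratio to the other H3K27me3 regions was the larger. It covered 16.9% of their length in Exp1 and 11.7% in Exp2 (14.3% ± 3.69, SD, n = 2), against 1.99% and 3.24% of the other regions (2.62% ± 0.879). The ratio was 8.48 in Exp1 and 3.61 in Exp2. H3K4me3 covered 4.53% and 4.42% (4.48% ± 0.0821), against 1.94% and 2.41% (2.17% ± 0.334), with ratios of 2.34 and 1.83. For both marks each experiment's value in the regions free of H3K9me3 was above both values in the others. An exact two-sided permutation test over the experiments, with values taken as independent, gave p = 0.333 for each mark. That is the smallest that 2 against 2 allows, so the design cannot reach 0.05. Both classes were read in the same 2 libraries of each mark, and the test ignored this pairing. Called from Exp2 alone and read with its H3K4 islands, the regions kept the direction but with smaller differences. These were 6.39 percentage points for H3K4me1 and 1.22 for H3K4me3. In the regions of both experiments the H3K4 islands of Exp2 gave 8.44 and 2.01, and the means over Exp1 and Exp2 were 11.7 and 2.30.

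The gap was also present, though smaller, against the 518 H3K27me3 regions with H3K9me3 over less than 50% of their length. In these 518 regions H3K4me1 covered 7.51% in Exp1 and 4.90% in Exp2. In the 3045 with H3K9me3 over 50% or more it covered 1.08% and 2.96%. H3K4me1 outside all H3K27me3 and H3K9me3 islands covered 12.7% and 6.62% of the genome, so the regions free of H3K9me3 held more of it per length than the genome without repressive islands in both experiments. The same was true of H3K4me3, at 2.71% and 2.36% outside. These values are for the summed length of the regions. Islands of H3K27me3 and of an H3K4 mark at the same place may come from the same or from different cells, which cannot be told apart.

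**Figure D2:**
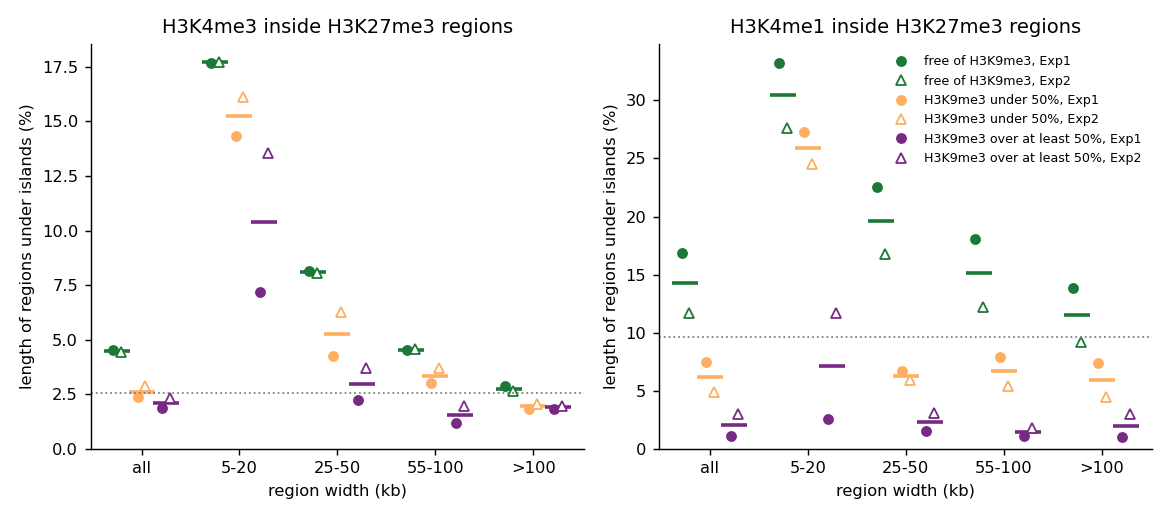
Percent of region length under H3K4me3 (left) and H3K4me1 (right) islands for all regions and by width (kb), with a point for each experiment, a bar at the mean, and a dotted line at the mean over the genome outside repressive islands. The regions free of H3K9me3 (green) lie highest in every width class, with H3K4me1 at 33.2% and 27.7% in those of 5 to 20 kb and 13.8% and 9.17% in those over 100 kb.

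Narrower regions had a larger share of their length under both marks. H3K4me3 covered 17.7% of regions of 5 to 20 kb in each experiment and 2.87% and 2.65% of those over 100 kb. In regions of 50 kb or more, H3K4me1 covered 16.7% (Exp1) and 12.7% (Exp2) of the outermost 5 kb and 15.4% and 10.6% of the stretch 20 to 25 kb inside. In the first 5 kb outside the edge it covered 14.1% and 8.11%, and in the 5 kb bins from there to 50 kb outside 17.7% to 20.9% in Exp1 and 10.8% to 14.5% in Exp2. The stretch 20 to 25 kb inside thus held less H3K4me1 than each bin beyond the first 5 kb outside, in both experiments.

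Counted by region, 614 of 699 (87.8%) held an H3K4me1 island in both experiments, against 32.9% of all H3K27me3 regions. In single experiments these were 648 in Exp1 and 628 in Exp2. H3K4me3 was held in both by 440 (62.9%), against 30.4% of all H3K27me3 regions, with 443 in Exp1 and 494 in Exp2. Among the other 3563 regions 22.1% held H3K4me1 and 24% H3K4me3. In the 518 of these with H3K9me3 under 50% the shares were higher, at 61.8% and 47.7%. H3K4me3 islands of Exp1 were in 49.6% of the 518, against 63.4% of the regions free of H3K9me3. Those of Exp2 were in 68.3% against 70.7%, so in Exp2 these classes hardly differed. Both marks were present in 432 regions free of H3K9me3, H3K4me1 alone in 182, H3K4me3 alone in 8 and neither in 77. H3K4me3 without H3K4me1 was thus rare here, while 326 of the other regions had it. Of the 77 with neither, 30 had no H3K4 island in either experiment. With every list, repressive marks included, limited to islands at or below its median p-value, 652 regions were free of H3K9me3, of which 12.7% held H3K4me3 and 62.7% H3K4me1.

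Regions of 20 kb or more were ranked by the lower of their shares in the 2 experiments. Those with the highest H3K4me3 shares included the regions of 3 retinal transcription factor genes. Pax6, the eye-field homeobox gene, came first: of its 30 kb at chr2:105660001-105690000, 92% was under H3K4me3 in Exp1 and 91.3% in Exp2. Its H3K4me1 was 73.3% and 60.7%. Next came Tbx2, a T-box gene of the dorsal retina, with H3K4me3 over 79.0% and 89.0% of 20 kb, and Lhx2, a LIM homeobox gene needed in Müller glia, with 60.0% and 51.2% of 25 kb. Adrb1, a beta-adrenergic receptor gene, had 76.0% and 48.0% of 20 kb. The fifth by this rank, with 47.8% and 47.5% of 80 kb on chromosome 4, held 15 starts of the interferon-zeta cluster (Ifnz and predicted genes). Those genes are near-identical copies among which reads can be split, so their values are uncertain. Sox2, a progenitor factor that Müller glia retain, had H3K4me3 over 48.0% and 44.5% of 40 kb. By the mean of the experiments Adrb1 stood above Lhx2, and the Hic1 region, described next, above the interferon region.

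By the same rank, the highest H3K4me1 share was at Hic1, a gene for a zinc finger repressor. Of its 45 kb at chr11:75160001-75205000, H3K4me1 covered 90.2% in Exp1 and 80.4% in Exp2 and H3K4me3 56.9% and 44.4%. Grin2c, an NMDA receptor subunit gene, followed with H3K4me1 over 66.5% and 64.3% of 65 kb, while H3K4me3 covered 0 in Exp1 and 6.77% in Exp2. Tbx2, Pax6 and the region of Tradd, Fbxl8 and Hsf4 (64.0% and 59.2% of 25 kb) completed the first 5. By the mean of the experiments Hic1 was still first, but Tbx2, Pax6 and the regions of Nfix, of Tnfrsf25 and Espn, and of Pth1r stood above Grin2c.

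**Figure D3:**
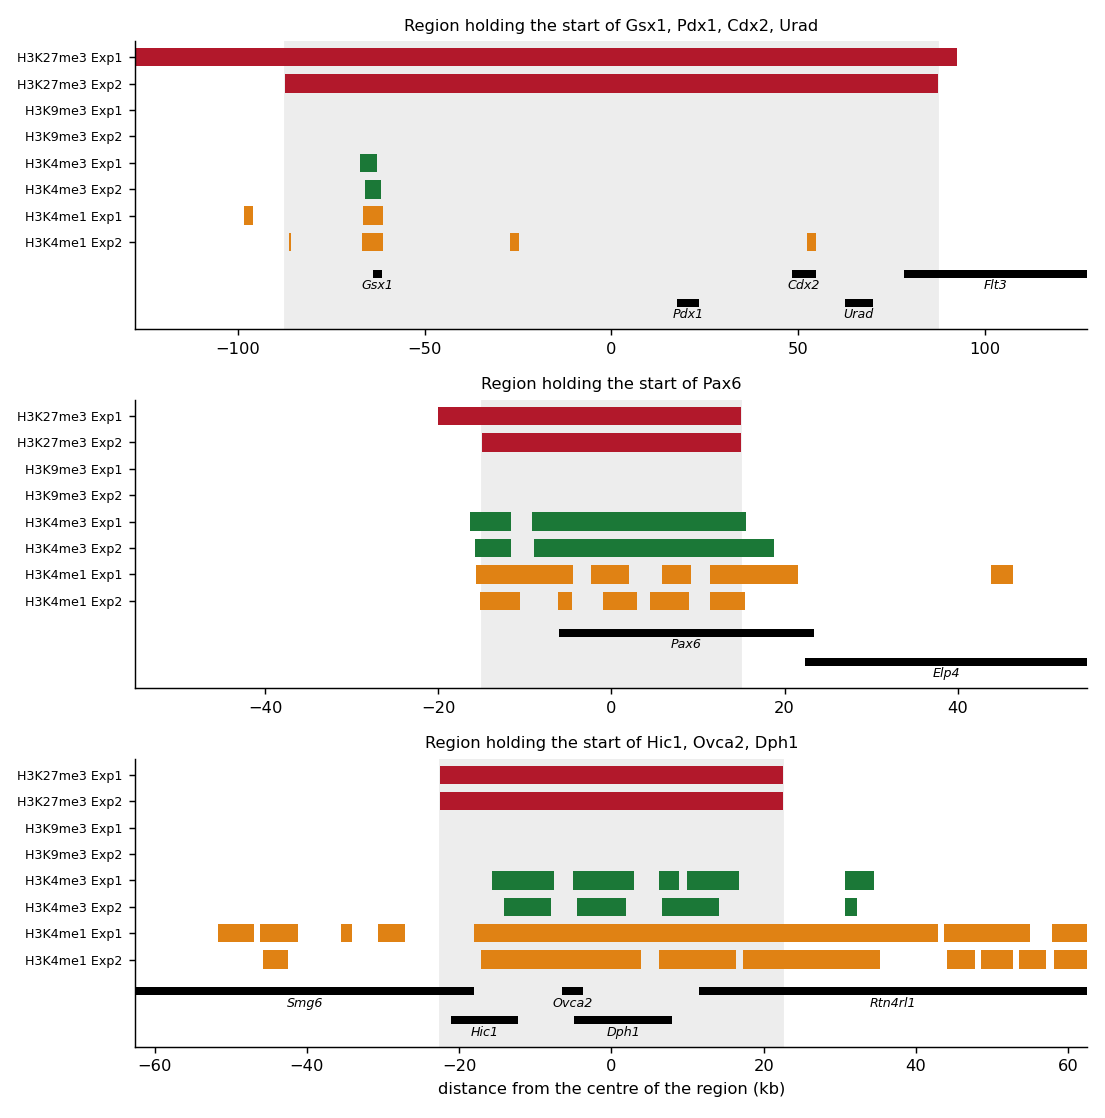
Islands of the 4 marks in Exp1 and Exp2 (rows) and genes (black) against the distance in kb from the centre of 3 regions (grey): the one with most starts of transcription factor genes and those with the highest shares of H3K4me3 and H3K4me1. No H3K9me3 island is present, and H3K4me3 sits at Gsx1 alone in the top map but covers 92% and 91.3% of the Pax6 region.

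MicroRNA hairpins were part of these regions: 59 of 1005 lay inside, in 48 regions. H3K4me1 was within 1 kb of 30 in both experiments, against 27.1% of all hairpins. The mature sequences below are those whose seed, bases 2 to 8 in capitals, was shared by hairpins at different positions in the regions, with 1 further pair of identical hairpins without H3K4 marks left out.
miR-132-3p: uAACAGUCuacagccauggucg
miR-212-3p: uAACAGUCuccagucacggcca
miR-195a-5p: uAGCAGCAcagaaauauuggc
miR-497a-5p: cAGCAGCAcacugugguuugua
miR-9-5p: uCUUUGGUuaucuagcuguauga
miR-9-3p: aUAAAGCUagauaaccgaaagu
Mir132 and Mir212 share the seed AACAGUC and lie in the Hic1 region, with both H3K4 marks within 1 kb in each experiment. Mir9-1 on chromosome 3 and Mir9-3 on chromosome 7 give the same mature miR-9-5p and miR-9-3p, the arms of a neural microRNA, and both had H3K4me3 and H3K4me1 in each experiment. Mir195a had both marks in each experiment, and Mir497 beside it had H3K4me3 in Exp1 only.

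The start of a protein-coding gene lay in these regions for 985 genes, 4.50% of 21887. Genes were placed by their RefSeq transcription start, or, where none is listed, by both gene ends lying in the region. A further 126 genes with only 1 end inside could not be placed. Genes without a listed start and with only 1 end in any H3K27me3 region were counted as outside H3K27me3 regions. They are thus not among the family members counted in the regions. Marks were read within 1 kb of the start, or of either end where none is listed. The density was 18 starts per Mb, against 8.35 in the other H3K27me3 regions. No placed start was found in 188 regions, of which 98 crossed a gene body, 1 start in 315, 2 to 4 in 157 and 5 or more in 39. Regions without a placed start held H3K4me1 in both experiments in 72.3% of cases and H3K4me3 in 31.9%, against 93.5% and 74.4% of regions with a placed start. Some of the former held 1 end of an unplaced gene, such as Sox9, Onecut2 and Gata6, so their marks may lie at starts that were not placed. The part of such ends in these shares was not tested. Called from Exp2 alone, the regions held 1658 starts, of which 937 were among the 985.

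Much of the H3K4me1 lay away from starts. Within 2.5 kb of a start lay 11.5% of the length of the regions, 66.7% ± 0.538 of the H3K4me3 length and 35.2% ± 5.17 of the H3K4me1 length (SD, n = 2). In Exp1, 1582 of 2530 H3K4me1 islands in the regions were farther off, and in Exp2 1126 of 2036. For H3K4me3 these were 210 of 788 and 267 of 923. H3K4me3 thus concentrated at starts more than H3K4me1 did in both experiments. Either end counted as a start for genes without a listed one, which brings some H3K4 length at gene ends into the share near starts.

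Transcription factor genes made up 152 of the 985 (15.4%), against 4.42% of genes starting in the other H3K27me3 regions and 2.92% of all protein-coding genes. Among those other regions the share was 13.0% (85 of 652) where H3K9me3 covered under 50% and 2.40% where it covered more. The regions with less H3K9me3 were thus near those free of it. The 152 are part of 640 genes in 22 families, and 142 regions (20.3%) held at least 1. Called from Exp2 alone the number was 247, of which 148 were among the 152. H3K4me3 lay within 1 kb of the start for 61 of the 152 in Exp1 and 78 in Exp2, with 61 (40.1%) in both. The share was 54.5% over all transcription factor genes, 59.7% over all protein-coding genes and 53.5% over the other 833 genes of these regions. H3K4me1 marked 128 (84.2%) in both experiments, against 75.2% of all transcription factor genes and 54.5% of all protein-coding genes. H3K4me1 without H3K4me3 was the commonest state, at 68 genes (44.7%), then both marks at 60, neither at 23 and H3K4me3 alone at 1. Of transcription factor genes not placed in H3K27me3 regions 9.52% had H3K4me1 alone, and in the other H3K27me3 regions 38.2% did. In those with H3K9me3 under 50%, 42.4% of 85 factor genes had H3K4me1 alone and 35.3% had H3K4me3. These shares were near those of the regions free of H3K9me3. The genes not placed include some with 1 end in an H3K27me3 region, such as Gata6, which had H3K4me1 alone.

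**Figure D4:**
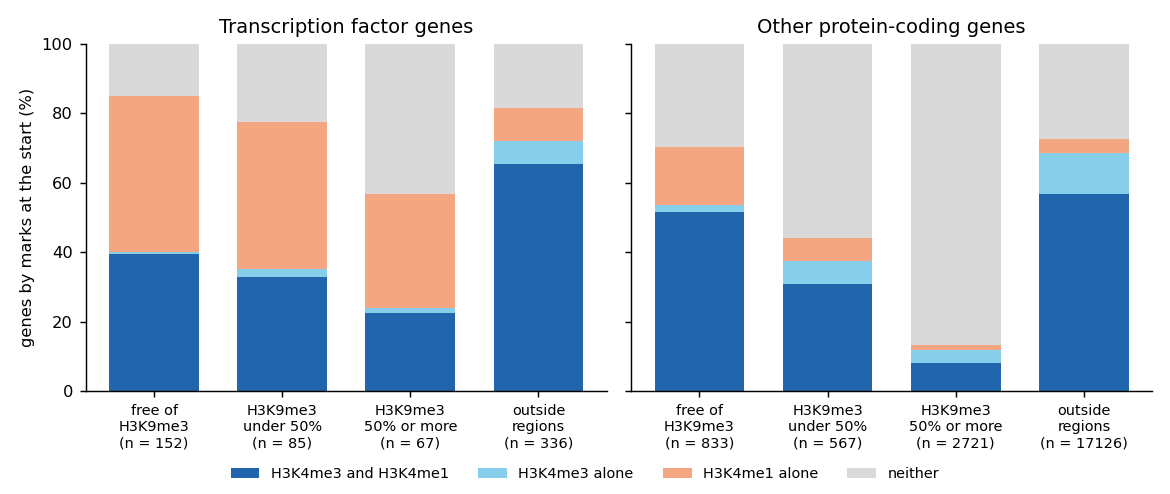
Percent of genes by the H3K4 marks within 1 kb of the start in both experiments (stacked bars), for transcription factor genes (left) and other protein-coding genes (right) in 4 classes of position. The class outside regions includes genes that could not be placed. H3K4me1 alone (orange) makes up 44.7% of the 152 transcription factor genes in regions free of H3K9me3 and 16.7% of the 833 other genes there.

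The region with most transcription factor starts, chr5:147165001-147340000 (175 kb), held the ParaHox genes Gsx1, Pdx1 and Cdx2, factors of brain, pancreas and gut, with Urad. H3K4me3 covered 2.63% in Exp1 and 2.40% in Exp2, all of it around Gsx1. Pairs of related factors shared a region at Dlx3 and Dlx4 (210 kb), Foxd2 and Foxe3 (110 kb), Batf3 and Atf3 (100 kb), Dlx5 and Dlx6 (95 kb), Tlx2 and Lbx2 (70 kb), Zic1 and Zic4 (65 kb), Stat5a and Stat5b (50 kb) and Dlx1 and Dlx2 (40 kb). The Zic pair was split: Zic1 had H3K4me3 at the start in both experiments and Zic4 in neither. Foxd2 and Foxe3 were split in the same way, as were Tlx2 and Lbx2.

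The homeobox families differed in how many members started in regions free of H3K9me3, against 152 of 640 over all transcription factor genes. All 6 Dlx genes, which pattern forebrain interneurons and the jaw, did so, and all 6 had H3K4me1 at the start in both experiments. None had H3K4me3 in both: Dlx3, Dlx5 and Dlx6 had it in neither, and Dlx1, Dlx2 and Dlx4 in 1. In the Dlx5 and Dlx6 region H3K4me3 covered 0 in each experiment and H3K4me1 9.89% and 5.05%. None of the 39 Hox genes, which set position along the body axis, was in such a region: 30 were in H3K27me3 regions at least 50% covered by H3K9me3 and 9 in regions less covered. Of 12 LIM homeobox genes, 7 were, with H3K4me3 at Isl2, Lhx2 and Lhx3 and only H3K4me1 at Lhx1, Lhx5, Lhx6 and Lmx1b. Of 14 Nkx genes, 4 were, Nkx1-1, Nkx1-2, Nkx3-2 and Nkx6-2, each with H3K4me1 and no H3K4me3, while 8 were in regions with H3K9me3 under 50%. Irx3, Irx5 and Irx6 all had both marks. Of 96 other homeobox genes 33 were, 8 of them with H3K4me3, such as Gbx1, Gsx1, Hhex and Hmx1, and 20 without it in either experiment, such as Barhl1 and Barx1. Pax6 had both marks and Pax5, a B-cell factor, H3K4me1 alone.

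Over all transcription factor genes, 152 of 640 were in the regions, 61 of them with H3K4me3 in both experiments. Proneural and other basic helix-loop-helix factors contributed 16 of 79 genes (20.3%), near the share over all factor genes, and mostly without H3K4me3. Bhlhe23, Neurod2 and Neurog2 had it in both experiments. Neurog2, a proneural gene of retinal progenitors, lay in a 20 kb region with H3K4me3 over 15% and 13% and H3K4me1 over 51% and 35%. Of the 12 without H3K4me3, Hand1 and Myod1 are factors of heart and skeletal muscle, and Neurog1 had H3K4me1 alone. Of 44 Fox genes 13 were in the regions, with H3K4me3 at Foxc1, Foxd2, Foxo6 and Foxp4, and none in either experiment at 8, among them Foxa2, Foxb1, Foxb2 and Foxd3. Foxa2, a factor of endoderm and floor plate, lay in a 65 kb region with H3K4me3 over 0 in each experiment and H3K4me1 over 7.69% and 5.54%. Of 16 T-box genes 7 were, with H3K4me3 in both experiments at Tbx2 and in neither at Eomes, T, Tbx20 and Tbx4. Of 6 Gata genes 3 were, with H3K4me3 in both experiments at Gata3, in 1 at Gata2 and in neither at Gata5. Gata6 had 1 end in a region of 25 kb free of H3K9me3 but could not be placed and is not among the 3.

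Other families carried H3K4me3 more often than the 61 of 152 over all factor genes in the regions. Of the 6 Sox genes in the regions, of 20, 5 had it, including Sox2, Sox3, Sox6 and Sox7, and Sox21 did not. Of 41 bZIP genes 4 (9.76%) were in the regions, a lower share than the 152 of 640 over all factor genes. All 4 had it, among them Atf3 and Batf3. Egr2, Egr3 and Egr4, immediate early genes, and Sp5 had it, and Sp9 of the same list in 1 experiment. Of 10 nuclear receptor genes, of 47, Esrra, Esrrg, Nr2e1 and Nr2f2 were among 6 with H3K4me3, and Hnf4a, a liver factor, Nr0b2, Nr5a1 and Nr5a2 had none in either. Of 20 genes of smaller families 15 had it, among them Bcl11a, Bcl11b, Ebf1 and Ebf3, and Wt1, the Wilms tumour factor, did not. Its region of 70 kb had H3K4me3 over 0 in each experiment and H3K4me1 over 9.43% and 3.43%. These counts per family are small and describe these lists only. They leave out genes that could not be placed, such as Gata6, Onecut2 and Sox9.

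**Figure D5:**
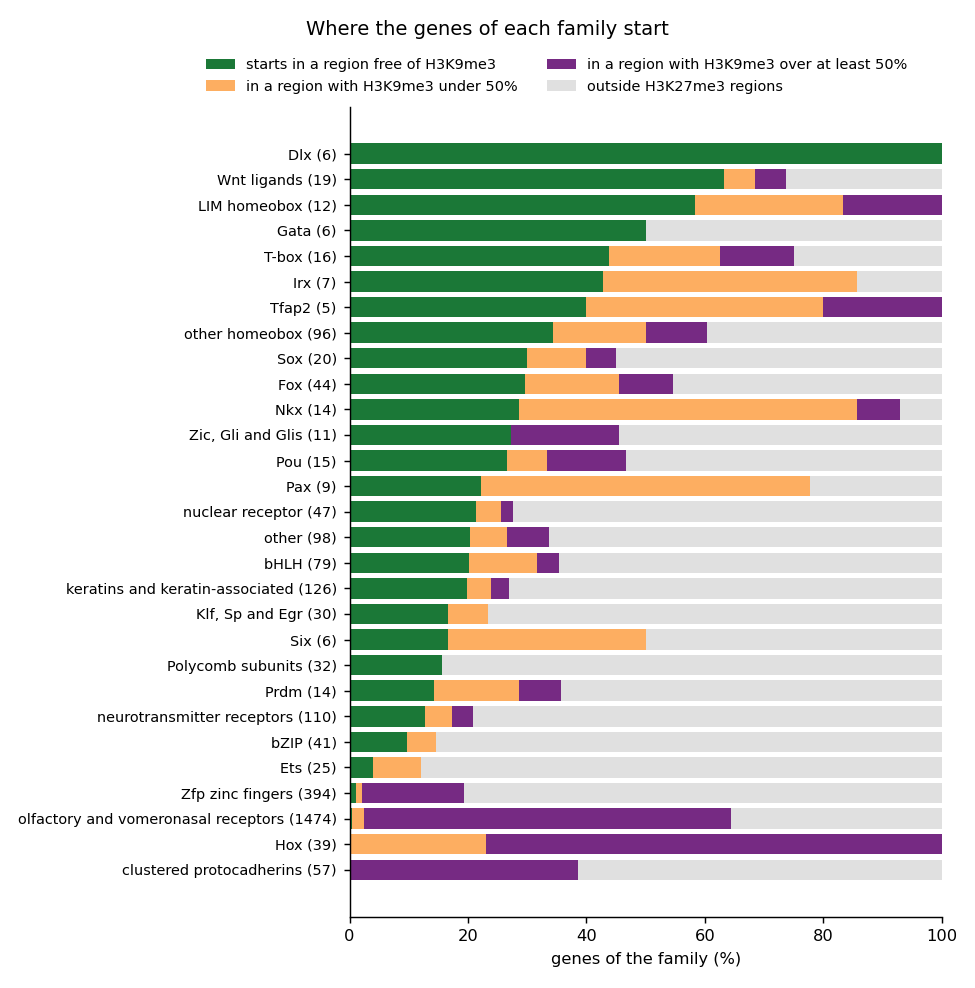
Percent of the genes of each family (number of genes in brackets) that start in a region free of H3K9me3, in an H3K27me3 region with less or more H3K9me3, or outside H3K27me3 regions. Genes that could not be placed count as outside. Families run from Dlx, with 6 of 6 in regions free of H3K9me3, to Hox and the clustered protocadherins, with 0 of 39 and 0 of 57.

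Among signalling genes, 12 of 19 Wnt ligands started in the regions, against 4.50% of all protein-coding genes. All 12 had H3K4me1 in both experiments. H3K4me3 was found in both at 6, among them Wnt10a, Wnt11 and Wnt6, in neither at Wnt1, Wnt3, Wnt3a and Wnt7a, and in 1 at Wnt10b and Wnt4. Wnt3 and Wnt9b share a 70 kb region, where Wnt9b had H3K4me3 and Wnt3 did not. Their receptors and secreted antagonists gave 2 of 20, Sfrp5 and Sost, neither with H3K4me3. BMP and TGF-beta ligands and antagonists gave 6 of 37 (16.2%), 3 with H3K4me3 (Bmp6, Bmp8a and Gdf6) and 3 without (Bmp4, Bmp8b and Gdf7). Wnt5a and Bmp2 also crossed regions free of H3K9me3, but had no placed start there and are in neither count. H3K4me3 covered 48% and 40% of the region crossed by Wnt5a and 36% and 26% of that crossed by Bmp2. FGF ligands gave 3 of 22 (13.6%), with H3K4me3 in both experiments at none.

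Neurotransmitter receptor genes gave 14 of 110, 12.7% against 4.50% of all protein-coding genes. H3K4me3 was in both experiments at 9 of the 14, such as Adra1b, Adra1d and Adra2b, a share near the 59.7% of all protein-coding genes. Voltage-gated channel genes gave 7 of 54 (13.0%), 5 with it, such as Cacna1d, Kcna1 and Kcna7. Of 22 neuropeptide genes 4 (18.2%) were in the regions, Cartpt with H3K4me3 and Avp, Oxt and Ucn without. Of 32 Polycomb subunit genes 5 (15.6%) were themselves in the regions, against 4.50% of all protein-coding genes, among them the PRC1 members Pcgf1 and Ring1. All 5 had both H3K4 marks, as did 49.6% of all protein-coding genes starting in the regions. The Ring1 region of 105 kb had H3K4me3 over 21.7% in Exp1 and 21% in Exp2 and H3K4me1 over 34.1% and 29.5%.

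The tandem gene families differed. Keratin genes, which are expressed in epithelia, gave 25 of 126 (19.8%), against 4.50% of all protein-coding genes. Of these Krt1 alone had H3K4me3 in both experiments, 4 had H3K4me1 and 21 had neither H3K4 mark. Neither mark was at 27.5% of all protein-coding genes starting in the regions. Of the 126, 92 lay outside H3K27me3 regions. Olfactory and vomeronasal receptor genes gave 6 of 1474, all without either mark, while 912 lay in regions at least 50% covered by H3K9me3. Zfp zinc finger genes gave 4 of 394 and the clustered protocadherins 0 of 57. Members of these families are similar copies, and reads could be split among them.

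Markers of retinal cell types were read to check the label of the cells. Over all protein-coding genes, H3K4me3 was at 59.7% in both experiments and 4.50% had a placed start in the regions. H3K4me3 was at the start of 9 of 10 Müller glia markers in both experiments, and 0 of the 10 had a placed start in the regions. Sox9, on this list, had 1 end in a region of 10 kb free of H3K9me3 and was not placed. H3K27me3 was at 2 of the 10. H3K4me3 was also present at 6 of 7 rod, 4 of 4 cone, 4 of 4 bipolar and 4 of 4 amacrine markers. It was at 3 of 5 ganglion, 1 of 3 horizontal and 1 of 4 endothelial markers, and at 0 of 4 microglia and 0 of 3 astrocyte markers. The part of other retinal cells in the results was not tested. Ganglion cells are the projection neurons of the retina. Of their 5 markers, 4 started in the regions (Slc17a6, Pou4f2, Isl2 and Pou4f1), against 4.50% of all protein-coding genes. Onecut1 and Lhx1 of 3 horizontal cell markers and Gad1 of 4 amacrine markers also did. Isl2, Onecut1 and Pou4f1 had both H3K4 marks, and Pou4f2 and Lhx1 had H3K4me1 alone. The Isl2 region of 15 kb had H3K4me3 over 21.3% in Exp1 and 14.7% in Exp2, and that of Lhx1, of 285 kb, 0.491% and 0.281%.

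CpG-rich promoters carried H3K4me3 less often in H3K27me3 regions, with or without H3K9me3, than outside them. CpG-rich means over 50% GC and a CpG observed over expected ratio above 0.6 in 300 bases around the start, and it described 485 of 970 promoters in the regions (50.0%), against 44.9% of all promoters, 50.6% of those outside H3K27me3 regions, 31.4% in H3K27me3 regions with H3K9me3 under 50% and 8.92% in those with 50% or more. Of the CpG-rich promoters in the regions 71.8% had H3K4me3 in both experiments, against 97.3% of those outside H3K27me3 regions. In H3K27me3 regions with H3K9me3 it was 74.4% where H3K9me3 covered under 50% and 79.2% where it covered 50% or more. For transcription factor genes the share was 50.5% of 99 in the regions, 41% of 39 and 25% of 24 in the other H3K27me3 classes, and 97.5% of 160 outside. H3K4me1 was at 90.9% of the same 99 promoters and at 88.8% of the 160. Of the 4 transcription factor sequences printed, those with H3K4me3 held 15 and 16 CG and those without held 10 and 13, at or above the median of all promoters.

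Where H3K4me3 was present at a start, its island was about as wide as elsewhere. At the 507 marked genes of the regions the median island was 3.2 kb in Exp1 and 2.6 kb in Exp2, and at 11984 genes outside H3K27me3 regions it was 3.4 and 3.0 kb. For transcription factor genes the medians were 4.0 and 3.8 kb at 61 genes in the regions and 4.6 and 4.0 kb at 242 outside. H3K4me1 islands at starts were 4.2 and 3.4 kb in the regions and 5.6 and 3.6 kb outside. Within each experiment, each of these medians was somewhat lower in the regions than outside. For H3K4me1 at transcription factor genes the 90th percentile was 7.06 and 5.66 kb in the regions, against 21.4 and 13.8 kb outside. For H3K4me3 at all marked genes it went the other way, at 7.2 and 5.88 kb against 6.4 and 5.4 kb.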

How the data were processed

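The authors deposited 1 list of islands for each of 8 ChIP libraries, with a p-value for each island, which may be corrected for multiple tests or not. The submitters' processing notes name mm10, the island caller SICER, and BWA (0.7.5a), bedtools (2.17), SAMtools (1.3.1) and FastQC. How SICER was set and against which control is not given in the sources used here. The input libraries were not analysed here. The deposited islands lie on grids of 0.2 kb for H3K4me3 and H3K4me1, 3 kb for H3K9me3 and 5 kb for H3K27me3, with smallest gaps of 0.8, 24 and 35 kb, so repressive islands bridge gaps that H3K4 islands would not.

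Islands were intersected and measured with Python 3.11.15, numpy 2.4.6 and pandas 2.3.3, and the interval code was tested on simulated data. H3K27me3 regions were split by H3K9me3 from either experiment (none, under 50%, at least 50%). Gene positions and starts came from RefSeq GRCm38.p6 tables, in which 17492 of 21887 protein-coding genes have a start. A gene was marked when an island of both experiments lay within 1 kb of a start, or of either end where no start is listed. Exact permutation tests ran over experiments and ignored that both classes of regions were read in the same libraries. Regions and genes are not replicates and were only counted. The members and gene lists were chosen with earlier results of these data known.

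Regions named are the 10 widest, the 10 with most transcription factor starts (ties to the widest) and the 5 with the highest share of each H3K4 mark, in the lower of the 2 experiments, among those of 20 kb or more. Genes named are up to 4 per factor family with H3K4me3 and 4 without, in alphabetical order, up to 3 in other lists, and a fixed set. Other genes named singly were picked with their values in view. Alternatives were other widths, H3K9me3 rules, windows, p-value limits and each experiment alone.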

Additional observations from a re-analysis of the deposited data

How the results depend on the processing

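The number of regions (699) stayed within 1.5 times under every alternative tried, from 628 with a minimum of 20 kb to 1023 when only H3K9me3 islands found in both experiments counted. Each experiment alone gave 963 to 986 regions. Their total length (54.76 Mb) moved more, to 76.9 Mb in Exp1 alone, 107.11 Mb in Exp2 alone, 91.68 Mb with runs of either experiment and 84.56 Mb with H3K9me3 of both. The excess of H3K4me3 and H3K4me1 length kept its direction in every alternative tried, and in Exp2 alone or with islands at or below the median p-value it was smaller (1.22 and 0.625 percentage points for H3K4me3, 6.39 and 5.80 for H3K4me1). The share of regions with H3K4me3 was 71.1% with an island of either experiment, 57.6 to 72.3% with 1 experiment left out and 12.7% with islands at or below the median p-value. The share with H3K4me1 was 94.7% and 62.7% under the first and last of these, and 86.3 to 87.5% with 1 experiment left out. Protein-coding genes numbered 1205 to 1658 and transcription factor genes 150 to 247 with 1 experiment left out. The share of transcription factor genes with H3K4me3 was 51.3% with either experiment, 42.0 to 44.9% with 1 left out and 6.67% with islands at or below the median p-value, a setting that removes about 1 in 2 islands of each list and also redraws the regions (652). Which of these moved the shares was not tested.

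The replicate block, in which marks were combined within each experiment and the values averaged, gave 65.0% of regions with H3K4me3, 86.9% with H3K4me1, differences of 1.72 and 9.45 percentage points, 1431.5 genes, 198.5 transcription factor genes, 43.5% of these with H3K4me3, and 974.5 regions. The labels do not say that an experiment number marks shared animals, and 2 pairs are too few to check it. The 2 alternatives added after seeing the data were this block for the regions and the transcription factor share, and genes with a listed start only (799 genes, 116 transcription factor genes, 41.4% with H3K4me3). Depth is unknown, so a missing island cannot be told apart from low coverage.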
